A study of Olea europaea var. sylvestris with 6 samples.

Results

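The subject is the 200 most abundant transcripts of wild olive stems, taken from a table of 50668 identifiers. For each of the 6 libraries the counts were divided by the library total and multiplied by 1000000 (this unit is written CPM), and the 200 identifiers with the highest mean CPM over the 6 libraries were taken. They are called members here and are numbered by that mean, so that the member ranked 1 is the most abundant. The member ranked 200 had a mean of 442.6 CPM and the identifier ranked 201 had 436.7 CPM, so no gap marks the limit. The members were chosen by their level, which is therefore given as a description without a test. The mean over all libraries uses no contrast of the genotypes, but an identifier that is very abundant in a single genotype can enter through that genotype alone.

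Wild olive (Olea europaea var. sylvestris) is the undomesticated form of the cultivated olive. The libraries came from stems of untreated plants of AC18, a variety that the submitters class as tolerant, and of AC15, which they class as susceptible, with 3 biological replicates each. The series concerns Verticillium wilt, a vascular disease caused by a soil fungus, and these plants had not been treated. Plants of both genotypes were rooted from leafy cuttings in a nursery, measured 40 to 52 cm at an age of 6 to 10 months, and had spent 2 months in a greenhouse. Each class of tolerance is represented by 1 variety, so a difference here is one between AC18 and AC15 and may not hold for other tolerant or susceptible olives. The labels call the replicates independent and biological without saying what separated them. The p-values set the difference between genotypes against the spread between these samples.

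In any tissue a small number of genes supply a large part of the messenger RNA. In green stems of plants such genes commonly encode photosynthetic proteins, ribosomal proteins and translation factors, metallothioneins, lipid transfer proteins and enzymes of cell wall formation. Which of these the members are is not given here, since a RefSeq list of 47911 genes of this olive matched 0 of the 50668 identifiers and the files pair no identifier with a name. Markers of stem tissues could not be checked for the same reason, and no sequences are shown. The members are described by their rank, and identifiers are given only for the members with the largest differences. Transcript lengths are not in the table, so a rank orders reads and not molecules. Near-identical copies of a gene can share reads, and the counting divides these among the copies, so the level of a single member may be uncertain.

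The libraries held 7468058 to 8589143 counts. Every member had at least 672 counts in every library, and all 200 passed the filter on low counts. At the median member, counting error alone would give a coefficient of variation (CV, the SD divided by the mean) of 1.33% among AC18 libraries and 1.38% among AC15 libraries.

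The members made up 0.395% of the identifiers and 21.2% or more of the counts of each library. They took 22.3%, 21.6% and 21.2% of the counts in AC18 replicates 1, 2 and 3, against 24.3%, 23.0% and 24.3% in AC15 replicates 1, 2 and 3. Every AC18 library was below every AC15 library. The means were 21.7% ± 0.560 for AC18 and 23.9% ± 0.739 for AC15 (SD, n = 3 for both), a difference of -2.18 percentage points. No p is given for this sum, because it runs over members chosen with earlier results of these data known. The next 200 identifiers, ranked 201 to 400, took 7.16% ± 0.0986 of AC18 libraries and 6.98% ± 0.0579 of AC15 libraries (SD, n = 3 for both).

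The lower share in AC18 lay within the 10 most abundant members. The members ranked 1 to 10 took 4.54% ± 0.285 of AC18 libraries and 7.56% ± 0.746 of AC15 libraries (SD, n = 3 for both), a difference of -3.02 percentage points. The next classes differed in the other direction. The members ranked 11 to 50 took 7.38% ± 0.197 in AC18 and 6.83% ± 0.0111 in AC15, and those ranked 51 to 100 took 4.45% ± 0.0394 in AC18 and 4.16% ± 0.00418 in AC15 (SD, n = 3 for both). In both classes each AC18 value exceeded each AC15 value. The members ranked 101 to 200 took 5.32% ± 0.0688 in AC18 and 5.33% ± 0.0232 in AC15 (SD, n = 3 for both), with libraries that overlapped. Shares within a library sum to a fixed total, so counts taken by the most abundant members are not available to the others.

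**Figure D1:**
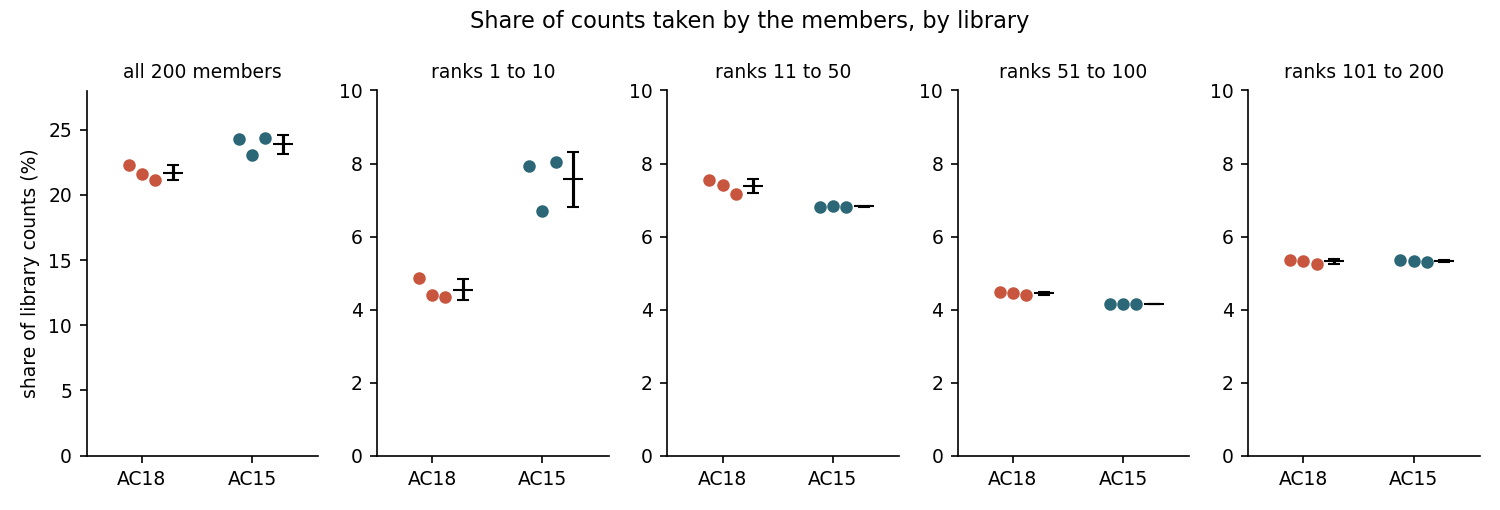
Share of library counts (%, vertical axes from 0) taken by all 200 members and by 4 classes of abundance rank in AC18 and AC15; points are libraries, and bars are the mean ± SD of 3. AC18 points lie below AC15 points for all members and for ranks 1 to 10, above them for ranks 11 to 50 and 51 to 100, and overlap with them for ranks 101 to 200.

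The difference in share is a net over members that differed in both directions, and a few abundant members weighed heavily in it. The members ranked 3, 5 and 6 together took 0.907% ± 0.178 of AC18 libraries and 2.21% ± 0.697 of AC15 libraries (SD, n = 3 for both). Without these members the remaining 197 took 20.8% ± 0.437 in AC18 and 21.7% ± 0.184 in AC15, which is a difference of -0.88 percentage points. Without the members ranked 1 and 10 as well, those left took 19.6% ± 0.465 in AC18 and 19.2% ± 0.0508 in AC15 (SD, n = 3 for both). The difference then turned to 0.40 percentage points, with libraries that overlapped. These 5 members were singled out after their values were seen. All 5 took a lower share in AC18, so leaving them out had to move the difference toward AC18.

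The order of the members was nearly fixed among replicates and differed widely between the genotypes. When every library was ranked on its own, the 200 most abundant identifiers of a pair of AC18 libraries shared 187 to 193 identifiers and those of a pair of AC15 libraries 184 to 191. The 9 pairs made of an AC18 and an AC15 library shared 136 to 141. The median member changed its rank among all identifiers by 44 to 50.5 places between libraries of different genotypes. The corresponding change was 3 to 6 places between AC18 libraries and 5 to 10 places between AC15 libraries. Over the 200 members Spearman's rho of the CPM was at most 0.473 between genotypes, 0.990 to 0.997 within AC18 and 0.974 to 0.991 within AC15. These coefficients are over members of the same 6 libraries, which are not independent, and over a narrow range of abundance. The limit on the mean of both genotypes also keeps members that are abundant in 1 genotype alone. This lowers the coefficient between genotypes and widens the changes of rank between them, so neither is free of the choice of members.

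**Figure D2:**
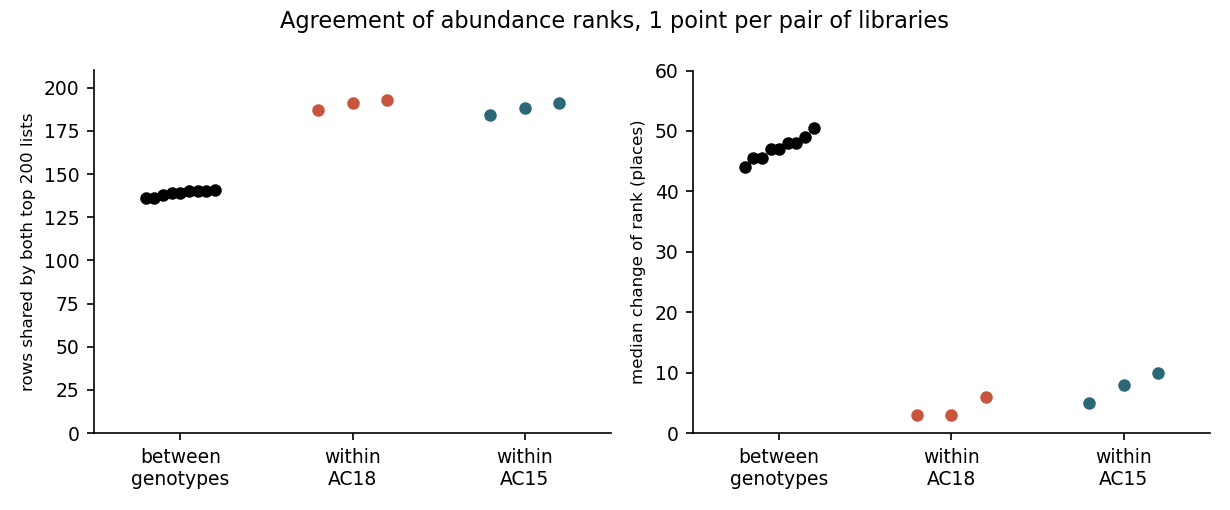
Left, number of identifiers shared by the 200 most abundant of each library in a pair; right, median change of rank of the 200 members, in places, with 1 point per pair of libraries (9 pairs between genotypes, 3 within AC18, 3 within AC15). Pairs between genotypes share 136 to 141 identifiers and move by 44 to 50.5 places, whereas pairs within a genotype share at least 184 and move by at most 10.

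By the mean CPM of each genotype, 141 of the 200 members were among the 200 most abundant identifiers of both genotypes, 29 of AC18 alone and 30 of AC15 alone. The member ranked 1 was first in all 6 libraries. The median change of rank between the genotype means was 48.5 places, and it was 3 places for the members ranked 1 to 10, 12.5 for those ranked 11 to 50, 47 for those ranked 51 to 100 and 66.5 for those ranked 101 to 200. CPM values lie closer together further down the list, so equal differences in level move a lower member by more places. Of the 200 members, 52 moved by more than 100 places and 37 by at most 10. The lowest rank of any member was 2175 in AC18 and 829 in AC15.

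Most of the members differed between the genotypes, in both directions and mostly by less than 2-fold. The fit over all 24018 genes tested called 167 of the 200 members (83.5%) at an adjusted p under 0.05 (edgeR's quasi-likelihood test, Benjamini-Hochberg adjustment over all genes tested), where 59.5% of all genes tested were called. Of these, 76 were higher in AC18, where 29.5% of all genes tested were called in that direction, and 91 were lower in AC18, where 30.0% were. At the median, the members' log2 fold changes had a standard error of 0.06 and those of all genes tested 0.14, and the share called moves with this precision. With the limit of at least 2-fold the members were close to the background, with 38 of 200 called (19.0%) and 20.2% of all genes tested. The 200 identifiers ranked 201 to 400 are nearer to the members in level. The adjusted p was under 0.05 for 161 of these, near the 167 of the members. Only 23 of these also passed the 2-fold limit, fewer than the 38 members. Neither difference in number was tested. Among the 38 members called with at least 2-fold, 18 were higher and 20 lower in AC18. The median absolute log2 fold change was 0.48 for the members and 0.43 for all genes tested, and the signed median was -0.09 for the members and -0.01 for all genes tested.

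**Figure D3:**
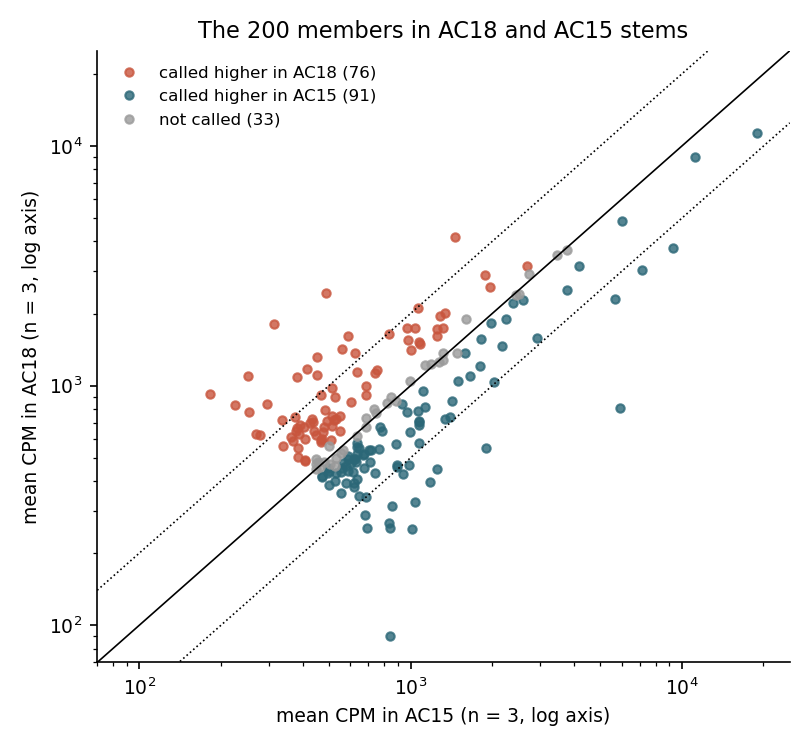
Mean CPM of each of the 200 members in AC18 (vertical) and AC15 (horizontal), n = 3 libraries each, on log axes; the solid line marks equal levels and the dotted lines a 2-fold difference. The 76 members called higher in AC18 and the 91 called higher in AC15 lie on both sides of the line, and 33 members were not called.

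Other tools gave nearly the same members. DESeq2 called 167 members, against 41.6% of the genes it tested, and limma voom called 171, against 59.1% of all genes tested. The 167 members called by edgeR were called in the same direction by both. In CPM, the values of the AC18 and AC15 libraries did not overlap for 175 members (87.5%), where 63.1% of all genes tested had no overlap. Since the rule admits identifiers that are abundant in a single genotype, the counts were repeated for the 141 members that were among the 200 most abundant of both genotypes. Of these, 109 were called (59.5% of all genes tested were), 47 higher and 62 lower in AC18, and 15 were called with at least 2-fold (20.2% of all genes tested were). A place among the 200 of both genotypes removes members with a large difference, so the lower counts follow from the restriction and are not a result about these members.

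The 10 most abundant members held none that was called higher in AC18. The test called 8 of them, each lower in AC18, and 4 of these by at least 2-fold. Of all genes tested 59.5% were called, 30.0% as lower in AC18, and 20.2% with at least 2-fold in either direction. These 10 are set by the mean over both genotypes, so a member can enter through 1 genotype. The member ranked 10 stood at rank 6 in AC15 and rank 80 in AC18. Those ranked 12 and 14, called higher in AC18, stood at ranks 8 and 4 in AC18. The member ranked 1 had 11067, 11298 and 11665 CPM in AC18, against 19809, 18877 and 18272 CPM in AC15. The groups did not overlap, and the fitted log2 fold change was -0.79 ± 0.07 (SE; edgeR adjusted p = 2.8e-11). The member ranked 2 had 9908, 8959 and 8027 CPM in AC18, against 11697, 11018 and 10810 CPM in AC15. Its log2 fold change was -0.36 ± 0.08 (SE; edgeR adjusted p = 0.00017), and its AC18 libraries were spread more widely than its AC15 libraries. Members ranked 4 and 8 were also lower in AC18, by less than 2-fold, with log2 fold changes of -0.35 and -0.45. The members ranked 7 and 9 were not called and their libraries overlapped. The member ranked 7 had 3809, 3763 and 3493 CPM in AC18, against 3710, 3835 and 3756 CPM in AC15. Its log2 fold change was -0.08, with a 95% interval of -0.21 to 0.06 (edgeR adjusted p = 0.32). For the member ranked 9 the log2 fold change was -0.03, with a 95% interval of -0.16 to 0.10 (edgeR adjusted p = 0.71).

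The members ranked 3, 5 and 6 had the 3 highest CVs of all members in both genotypes, and they varied together. The member ranked 3 had 4492, 3184 and 3587 CPM in AC18 replicates 1, 2 and 3, against 10185, 5754 and 12004 CPM in AC15 replicates 1, 2 and 3. The member ranked 5 had 3801, 2540 and 2744 CPM in AC18, against 7979, 4646 and 8800 CPM in AC15. The member ranked 6 had 2765, 1916 and 2189 CPM in AC18, against 5898, 3982 and 7103 CPM in AC15. In each of the 3, replicate 2 was the lowest library in both genotypes, and the genotypes did not overlap. The highest libraries were AC18 replicate 1 and AC15 replicate 3. The ratios of these 3 members to each other moved less among replicates than their levels did. The member ranked 5 stood at 0.846, 0.798 and 0.765 of the member ranked 3 in AC18 and at 0.783, 0.807 and 0.733 in AC15. For the member ranked 6 the ratio was 0.615, 0.602 and 0.610 in AC18 and 0.579, 0.692 and 0.592 in AC15. Some other members showed a similar pattern over the libraries with a smaller range. After removal of the genotype means, Pearson's r with the member ranked 3 over the 6 libraries was 0.99 for the members ranked 5 and 6. It was 0.95, 0.93 and 0.92 for those ranked 80, 13 and 15, looked up after the pattern was seen. These are the highest values found among the members. With 6 libraries and the genotype means removed, r is weakly determined, and high values can occur when many members are searched. Among AC15 libraries the range was 1.06 on the log2 scale for the member ranked 3 and 0.30 for the member ranked 80. Whether any of these members are copies that share reads was not tested.

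**Figure D4:**
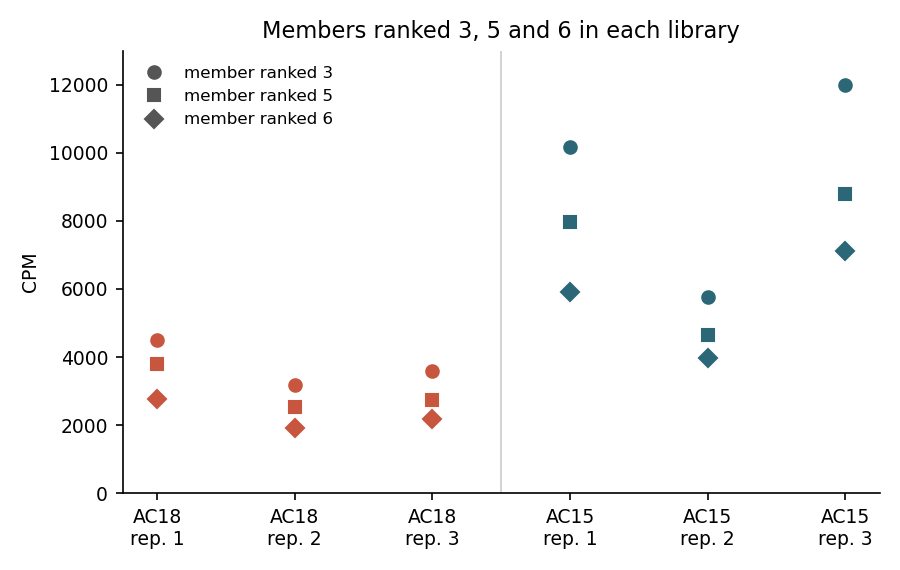
CPM (vertical axis from 0) of the members ranked 3, 5 and 6 in each AC18 and AC15 library; each symbol is 1 member in 1 library. All 3 members are lowest in replicate 2 of both genotypes and highest in AC18 replicate 1 and AC15 replicate 3. The libraries of the genotypes do not overlap for any of them.

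For these members the fitted difference between genotypes exceeded 2-fold, and its adjusted p depended on the test and on single libraries. The log2 fold changes were -1.36 ± 0.35, -1.29 ± 0.34 and -1.35 ± 0.30 (SE) for the members ranked 3, 5 and 6, with edgeR adjusted p of 0.030, 0.032 and 0.017. DESeq2 gave an adjusted p of 0.00025, 0.00047 and 2.3e-05 for the same members and limma voom 4.3e-07, 3.9e-07 and 2.0e-08. For the member ranked 3 the call was lost without any 1 of AC18 replicates 1, 2 and 3 or AC15 replicates 1 and 3, with an adjusted p of 0.059, 0.100, 0.100, 0.085 and 0.055 and log2 fold changes of -1.52, -1.24, -1.30, -1.29 and -1.13. For the member ranked 5 it was lost without AC18 replicate 2 or 3 or AC15 replicate 1 or 3, with an adjusted p of 0.104, 0.106, 0.091 and 0.065. For the member ranked 6 it was lost without AC18 replicate 2 or 3 or AC15 replicate 1, with an adjusted p of 0.053, 0.068 and 0.056. Over all alternative fits the log2 fold change ran from -1.61 to -1.13 for the member ranked 3, from -1.52 to -1.11 for the one ranked 5 and from -1.55 to -1.15 for the one ranked 6, so the direction was the same in each.

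The largest differences among the members reached several-fold. The 2 identifiers named in each direction had the largest fitted fold change among called members whose libraries did not overlap, so they are the extremes of 200 members. Of the 4, 3 were outside the 200 most abundant identifiers of 1 genotype and entered the list through the other, which all but fixed a difference, so their differences are given as a description without a p. Oeu017729.1, ranked 185, had 84.9, 90.5 and 95.4 CPM in AC18, against 833.4, 900.5 and 790.1 CPM in AC15. It was a fitted 9.63-fold lower in AC18 (log2 fold change -3.27 ± 0.07, SE). It stood at rank 2175 in AC18 and at rank 78 in AC15, which is the largest change of rank among the members, and it entered the list through AC15 alone. Oeu064909.1, ranked 10, had 824, 808 and 783 CPM in AC18, against 6662, 5349 and 5783 CPM in AC15. This made it the sixth most abundant transcript of AC15 and the member at rank 80 in AC18, and it was a fitted 7.62-fold lower in AC18 (log2 fold change -2.93 ± 0.08, SE; edgeR adjusted p = 9.5e-23).

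In the other direction, Oeu005027.1, ranked 56, had 1824, 1848 and 1769 CPM in AC18, against 327, 286 and 325 CPM in AC15. It was a fitted 5.61-fold higher in AC18 (log2 fold change 2.49 ± 0.07, SE). It stood at rank 27 in AC18 and rank 364 in AC15, and so entered the list through AC18. Oeu064866.1, ranked 135, had 902, 910 and 957 CPM in AC18, against 174, 199 and 176 CPM in AC15. It was a fitted 4.88-fold higher in AC18 (log2 fold change 2.29 ± 0.07, SE). It stood at rank 67 in AC18 and rank 829 in AC15, and likewise entered through AC18. In all 4 the replicates of a genotype lay close together relative to the distance between genotypes. The choice by call, fold change and lack of overlap favours this, so it is no further result. A further 3 members reached 4-fold, those ranked 35 and 100, higher in AC18, and the one ranked 105, lower in AC18. The member ranked 35 had 2313, 2403 and 2561 CPM in AC18, against 492, 501 and 476 CPM in AC15. It was thereby at rank 15 in AC18 and at rank 168 in AC15. The member ranked 14, at 4444, 4165 and 3887 CPM in AC18, against 1315, 1612 and 1452 CPM in AC15, was the most abundant one called at least 2-fold higher in AC18. It held rank 4 in AC18 and rank 33 in AC15, and its log2 fold change was 1.47 ± 0.07 (SE; edgeR adjusted p = 2.2e-16).

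The 76 members called higher in AC18 summed to 8.51% ± 0.135 of an AC18 library and 4.91% ± 0.0454 of an AC15 library. The 91 called lower in AC18 summed to 9.42% ± 0.373 of an AC18 library and 15.2% ± 0.659 of an AC15 library (SD over 3 libraries). These shares follow from the calls and are no further test. Bulk RNA does not separate a change in the number of cells of a kind from a change in the RNA per cell.

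The 33 members that were not called took 3.77% ± 0.0702 of AC18 libraries and 3.72% ± 0.0641 of AC15 libraries (SD, n = 3 for both). In 31 of them the whole 95% interval was inside 1.25-fold up or down, so the data bounded their difference closely. The exceptions were the members ranked 25 and 170, in both of which AC15 replicate 2 was the lowest of the 6 libraries. The member ranked 170 had 451, 452 and 489 CPM in AC18, against 659, 392 and 535 CPM in AC15, and its interval ran from -0.78 to 0.31 on the log2 scale. Over all 200 members the interval was inside 1.5-fold for 95 (47.5%), against 35.8% of all genes tested. No adjustment for the number of intervals was made.

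Replicates of a genotype differed little at the median member, and with all libraries more in AC15 than in AC18. The median CV was 3.26% among AC18 libraries (range 0.193% to 22.4%) and 4.93% among AC15 libraries (range 0.0688% to 34.5%). Over all genes tested the medians were 8.81% in AC18 and 11.1% in AC15, where counting error alone would give 9.26% in AC18 and 9.58% in AC15. At the median, the CV of the members was thus above the counting error and that of all genes tested near it. The CV exceeded 10% for 6 members in AC18 and for 27 in AC15, and it was higher in AC15 than in AC18 for 137 of the 200 members. The same held for 141 of the 200 identifiers ranked 201 to 400 and for 14395 of the 24018 genes tested, so it is not particular to the members. The counting error here takes each count as an independent read, which estimated counts are not.

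**Figure D5:**
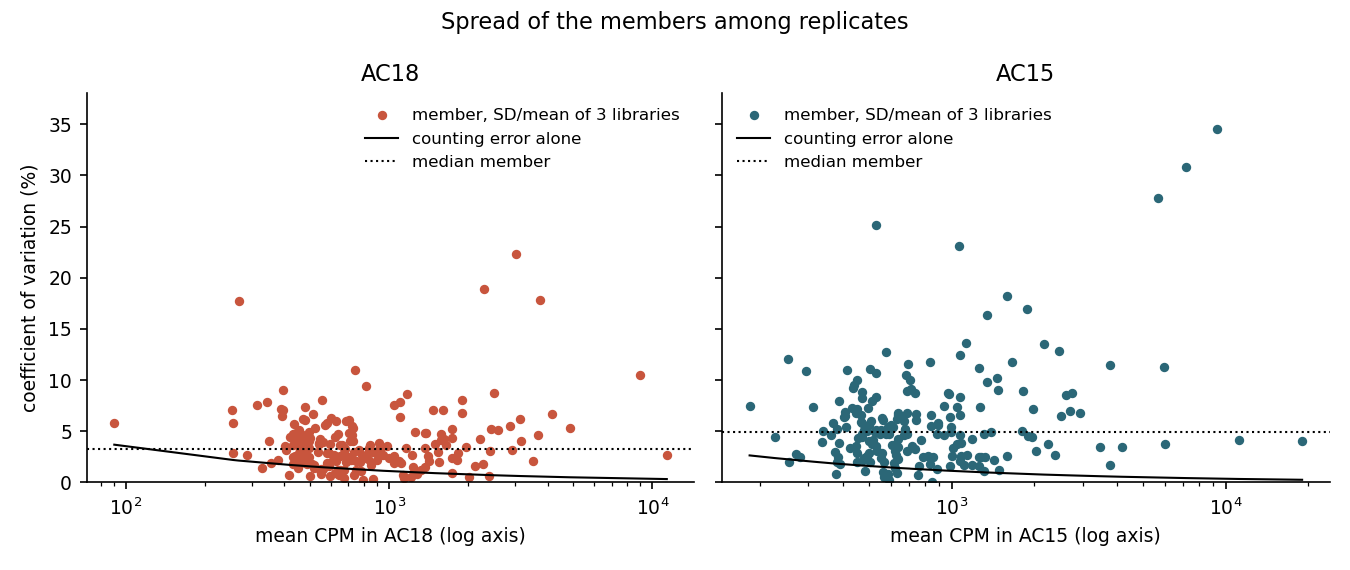
Coefficient of variation (%) of each member among 3 AC18 libraries (left) and 3 AC15 libraries (right) against its mean CPM on a log axis; the solid line is the CV that counting error alone would give and the dotted line the median member. The median is 3.26% in AC18 and 4.93% in AC15, and the highest points in both panels lie at 22.4% and 34.5%.

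Each genotype had 1 library that stood apart more often than the others. AC15 replicate 2 was the library farthest from the median of its genotype for 118 of the 200 members, AC15 replicate 1 for 50 and AC15 replicate 3 for 32. It was the highest of the AC15 libraries for 57 of the 118 and the lowest for 61, so it did not lie to 1 side. The median CV was 5.81% between AC15 replicates 1 and 2, 4.34% between replicates 2 and 3, and 2.65% between replicates 1 and 3. The closest AC15 pair, without replicate 2, was at 2.65%, and the closest AC18 pair, without replicate 3, at 2.05%. The middle pairs were at 4.34% in AC15 and 2.65% in AC18, and the widest at 5.81% and 4.17%. AC15 was thus the wider at each place in this order. A CV of 2 libraries is not comparable with a CV of 3, so only pairs are set beside each other. Among AC18 libraries replicate 3 was farthest for 100 members, 31 times as the highest and 69 times as the lowest. The median CV was 2.05% between AC18 replicates 1 and 2, 2.65% between replicates 2 and 3, and 4.17% between replicates 1 and 3. The labels name no batch or date for any library. With AC15 replicate 2 left out, 171 members were called, 75 higher and 96 lower in AC18, and 166 of the 167 calls made with all libraries remained.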

How the data were processed

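Poly(A) RNA from stems was sequenced from stranded libraries in paired reads of 100 bases, per the labels' protocols. The authors deposited a table of estimated counts as whole numbers. FastQC, Trimmomatic and kallisto 0.46.1 are named, per the submitters' processing notes. Which transcripts, genome build and rounding were used is not stated there. Reads that match several transcripts are split by kallisto. CPM, ranks, shares and CVs were computed from the deposited counts over library totals. Differences (AC18 minus AC15) were tested over the whole table with edgeR 4.0.16 in R 4.3.3 (TMM, filterByExpr with minimum count 10 and minimum total 15, robust quasi-likelihood fit, genotype as single factor, two-sided). DESeq2 1.42.0 and limma 3.58.1 (voom) were alternatives. The fit was tested on simulated data. Standard errors come from the coefficient and its F statistic.

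The members, lists and tests were chosen with earlier results of these data known. Members are named by identifier where they are the 2 per direction with the largest fitted fold change among called members without overlap. The 10 highest in CPM and those at the limit are given by rank. The members ranked 14, 25, 35, 100, 105 and 170 were chosen after their values were seen. Lists of product names could not be run. Equal replicate numbers were not taken as pairs, since the labels do not tie them.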

Additional observations from a re-analysis of the deposited data

How the results depend on the processing

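The count of 167 members called was 158 to 171 when single libraries were left out, and 167 with library totals alone, 166 with DESeq2's size factors and 168 with scaling by the counts outside the members. In none of the 14 alternative fits was one of the 167 called in the opposite direction. With a replicate block the count was 166, and the members ranked 3, 5 and 6 had an edgeR adjusted p of 2.3e-17, 7.2e-19 and 3.1e-29. Their log2 fold changes of -1.31, -1.25 and -1.33 were near those of the main fit, where edgeR's adjusted p was 0.030, 0.032 and 0.017. The labels give no basis for the block, so the smaller p-values are not taken as support. Over all genes tested, deviations of libraries with equal numbers correlated at -0.03, -0.01 and -0.04. In 0 of 6 libraries was the best match the one with its number. These values run over all genes and do not speak to single members. For the members ranked 3, 5 and 6, replicate 2 was the lowest library in both genotypes. Whether equal numbers mark a shared source was not tested. Calls higher in AC18 were 74 to 78, calls lower in AC18 84 to 96 and calls of at least 2-fold 34 to 39 without single libraries. Restricted to the 141 members in the top 200 of both genotypes, a setting chosen after seeing the data, the counts were 109 called, 47 higher in AC18 and 15 of at least 2-fold. The median log2 fold change of the members (-0.09) was -0.039 with library totals alone, which moved the median of all genes by 0.05, and -0.110 to -0.0613 without single libraries. The difference in share (-2.18 points) was -2.61 to -1.92 without single libraries. With members chosen by AC18 alone it was -0.43 and by AC15 alone -3.97, by construction of the choice. Members chosen in the first library of each genotype and read in the others gave -2.26. That list had 198 members in common with the main one, so a value near -2.18 was close to given and is no support. Settings added after seeing the data gave -0.88 without the members ranked 3, 5 and 6 and 0.40 without those ranked 1, 3, 5, 6 and 10. The median change of rank (48.5 places) was 47 to 49 without single libraries, 23 for the 100 and 82 for the 400 most abundant identifiers. The median CV was 2.05% to 4.17% in AC18 and 2.65% to 5.81% in AC15 without single libraries. The 4 members named by identifier kept their direction in all 56 fits, which is no support, since they are extremes chosen on the same libraries. For 27 members in AC18 and 12 in AC15 the CV was under the counting error.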

Other observations

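Some members carry neighbouring identifier numbers. In 7 cases consecutive members were at most 3 numbers apart, 1 member standing in 2 of these cases, and in 6 of the 7 the fitted differences had the same sign. Both members were called in 4 cases, where 83.5% of all members were called singly. Whether neighbours share a sign or a call more often than other pairs of members was not tested. The members ranked 54 and 127, 1 number apart, had log2 fold changes of 1.41 ± 0.06 and 1.46 ± 0.07 (SE), and those ranked 96 and 180, 2 numbers apart, had -1.71 ± 0.06 and -1.49 ± 0.07. Whether neighbouring numbers mean neighbouring genes is not given in the sources used here.

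Identifiers with a suffix above 1 made up 22 of the 200 members (11%), 16.3% of the genes tested and 9.51% of all identifiers. What the suffix stands for is not stated in the labels.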
